A study of Homo sapiens with 8 samples.

Results

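The row hsa-miR-149 was taken by name from the count table of each library, where it is 1 of 2575 named miRNA rows. The 8 miRNA libraries were made from total RNA of HCT116, a human colorectal cancer cell line (passages 16 to 19). For 4 of them the cells shared their medium for 6 hours with ETBF, enterotoxigenic Bacteroides fragilis, at a multiplicity of infection of 500. This gut anaerobe secretes a metalloprotease toxin. The 4 controls received bacterial medium alone and are titled untreated. HCT116 is a single tumour-derived line, and the labels do not state whether each replicate was its own culture. The p-values therefore speak only of the spread among these libraries, part or all of which may be technical.

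MiR-149 is processed from a hairpin in an intron of GPC1, which encodes the cell-surface heparan sulfate proteoglycan glypican-1. Each arm of the hairpin can be loaded onto an Argonaute protein, which then pairs the arm's seed with messenger RNAs and lowers their output. The locus is known as a target of CpG methylation in colorectal tumours, and the study is known for following miR-149-3p in exosomes, the small vesicles that carry RNA between cells. The row analysed carries no arm in its name, so each value below is for hsa-miR-149 as counted and for neither arm.

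The hairpin lies at chr2:240456001-240456089 on the plus strand (GRCh38.p14, RefSeq), inside intron 1 of all 4 GPC1 transcripts that span it in GENCODE v29. An antisense gene, AC110619.1, also spans it by an intron. The hairpin and its 2 arms are shown because the counted row could hold either arm and because their composition is referred to below. Both arms are in capitals in the hairpin, 5p before 3p, and bases 2 to 8 (the seed) are in capitals in the arms.
hairpin: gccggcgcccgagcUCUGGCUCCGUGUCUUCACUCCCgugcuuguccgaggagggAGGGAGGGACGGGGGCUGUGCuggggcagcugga
hsa-miR-149-5p: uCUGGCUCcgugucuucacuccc
hsa-miR-149-3p: aGGGAGGGacgggggcugugc

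The 5p arm has 23 bases and 60.9% GC, and the 3p arm has 21 bases and 76.2% GC. Among the RefSeq human mature miRNAs compared, the seed of the 5p arm occurred in no other. The seed of the 3p arm was shared by 2, miR-4728-5p and miR-6785-5p, shown here because a shared seed can pair with the same sites.
hsa-miR-4728-5p: uGGGAGGGgagaggcagcaagca
hsa-miR-6785-5p: uGGGAGGGcguggaugauggug

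Each of these had 3 counts in all over the 8 libraries, so neither was measured at a level that could be compared. The longest run of bases that the 5p arm shared with another mature miRNA was 11, with miR-3664-5p (27 counts in all). For the 3p arm it was 9, reached by 5 other miRNAs. The counts of hsa-miR-149 had no common divisor above 1.

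Libraries of cells exposed to ETBF held a smaller share of miR-149. The ETBF libraries had 12138, 9395, 10065 and 2700 counts of it for replicates 1 to 4, and the controls had 27630, 31217, 33868 and 36057. Totals ran from 2591655 to 4706156 counts with ETBF and from 5243400 to 6522542 in controls, so levels are given as counts per 1000000 of the library total (CPM). These were 2579, 2327, 2594 and 1042 CPM with ETBF and 5239, 5168, 6459 and 5528 CPM in controls. All ETBF libraries lay below all controls, and ETBF replicate 4 lay well below the other 3.

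Mean levels were 2136 ± 739 CPM for ETBF against 5599 ± 595 CPM for controls (SD, n = 4 each), a difference of -3463 CPM (two-sided exact permutation p = 0.0286, the smallest that 70 arrangements allow, adjusted p = 0.0286 over 3 measures). As a share of all counts, miR-149 made up 0.214% with ETBF and 0.560% in controls. Counting error was far smaller than these differences: the 95% exact Poisson interval was 1003 to 1082 CPM for ETBF replicate 4, the shallowest library. That interval holds counting error alone, because without molecular identifiers reads need not be separate molecules. In bulk RNA, a lower amount per cell and fewer cells that hold the miRNA cannot be told apart. All levels are relative to the other miRNAs counted, and no absolute amount was measured.

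The rank of miR-149 within a library needs no scaling between libraries. It was 39th, 41st, 40th and 59th with ETBF and 26th, 29th, 25th and 27th in controls. The mean rank was 44.75 ± 9.54 for ETBF against 26.75 ± 1.71 for controls (SD, n = 4 each, two-sided exact permutation p = 0.0286, adjusted p = 0.0286). Replicates 1 to 3 of ETBF were within 2 places of each other, and the controls within 4.

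**Figure D1:**
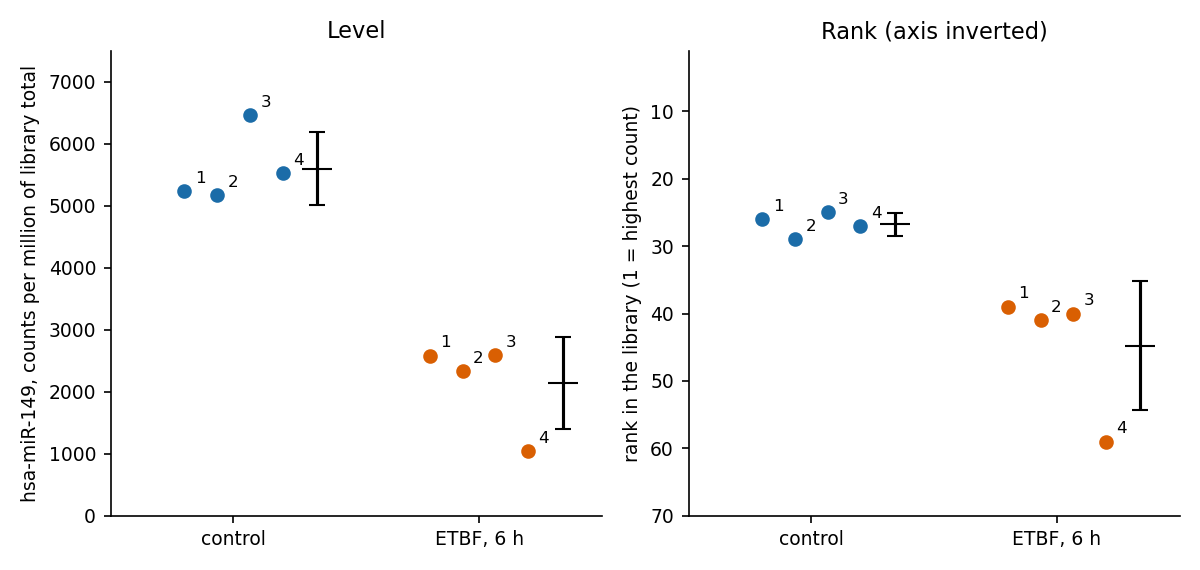
Level of hsa-miR-149 in CPM of the library total (left) and its rank in the library (right, axis inverted so that higher is more abundant). Points are libraries, numbered by replicate, and black marks are mean ± SD (n = 4). All ETBF points lie below all controls on both axes, with replicate 4 lowest at 1042 CPM and rank 59.

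Fitted across all miRNAs with edgeR, miR-149 fell by 1.44 on the log2 scale, which is 2.71-fold lower (SE 0.31, adjusted p = 0.0110 over 480 tested). After TMM scaling its level was 2103 ± 751 CPM for ETBF against 5702 ± 494 CPM for controls, and the CPM given below for other miRNAs are TMM-scaled unless said otherwise. Background calls were common: 69 of 480 were lower with ETBF (14.4%) and 96 were higher (20.0%), and for 75 (15.6%) all ETBF libraries lay below all controls. The split between directions depended on scaling, with 74 higher and 92 lower under upper-quartile scaling and 70 higher and 87 lower with the GC trend removed. A call for a single row is therefore read here by its size and not by the fact that it passed. Without ETBF replicate 4 the fall was 2.32-fold, or -1.21 in log2 units (SE 0.09, edgeR adjusted p = 4.95e-10). Leaving that library out lowered the estimate and narrowed its error. After every library was thinned to the depth of the shallowest, the log2 fold change was -1.44 (adjusted p = 0.00915).

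Rows that can hold fragments of ribosomal RNA or repeats moved with the groups as well. In CPM of the total, miR-7641 was at 81.8 to 107 with ETBF and 5.88 to 20.5 in controls. The same levels were 11.05 to 32.8 and 3.68 to 10.4 for miR-3687, and 17.0 to 22.8 and 9.27 to 12.7 for miR-1303. All 3 were higher by edgeR (adjusted p = 0.000300, 0.0274 and 0.000101), beside 20.0% higher over all 480. The ranges of miR-3687 nearly met, and those of miR-6087 overlapped between the groups (edgeR adjusted p = 0.188). The part of these rows in the fall of miR-149 was not tested.

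By size, miR-149 had the second largest fall of the 480. Ahead of it was miR-129-5p, which is enriched in brain and lost in many tumours, at -3.62 (SE 0.17). Just behind it were miR-210-3p, the hypoxia-induced miRNA, at -1.43 (SE 0.10) and miR-935 at -1.40 (SE 0.14). The SE of miR-149 spans these 2 neighbours, so the order among the 3 is not resolved. Without ETBF replicate 4 miR-149 was 6th of 507, behind miR-129-5p, miR-3130-3p, miR-210-3p, miR-935 and miR-642a-3p.

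What set miR-149 apart was its abundance. The control means of miR-129-5p, miR-210-3p and miR-935 were 58.6, 679 and 39.3 CPM, against 5702 CPM for miR-149. Of the 64 miRNAs with at least 1000 CPM in controls, 23 were lower and 9 higher. Over all 480 the shares were 14.4% lower and 20.0% higher, so falls were more common in this set. The set was cut on the control level alone, which favours falls. In it miR-149 had the largest fall, in this fit and in each of the 20 alternatives run (among 58 where the GC trend was removed). The next in that set was miR-941, at -0.70 (SE 0.08), from 2713 ± 209 to 1667 ± 128 CPM. By CPM of the total lost, miR-149 came 5th of the 207 tested miRNAs whose mean CPM was lower, with 7.16% of the summed loss. The 4 ahead of it were far more abundant and fell by smaller factors: miR-26a-5p (log2 fold change -0.49), miR-30d-5p (-0.62), miR-148a-3p (-0.45) and let-7a-5p (-0.21, a call lost with total-count scaling and without ETBF replicate 3 or control replicate 3, adjusted p = 0.0608, 0.0517 and 0.0538).

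**Figure D2:**
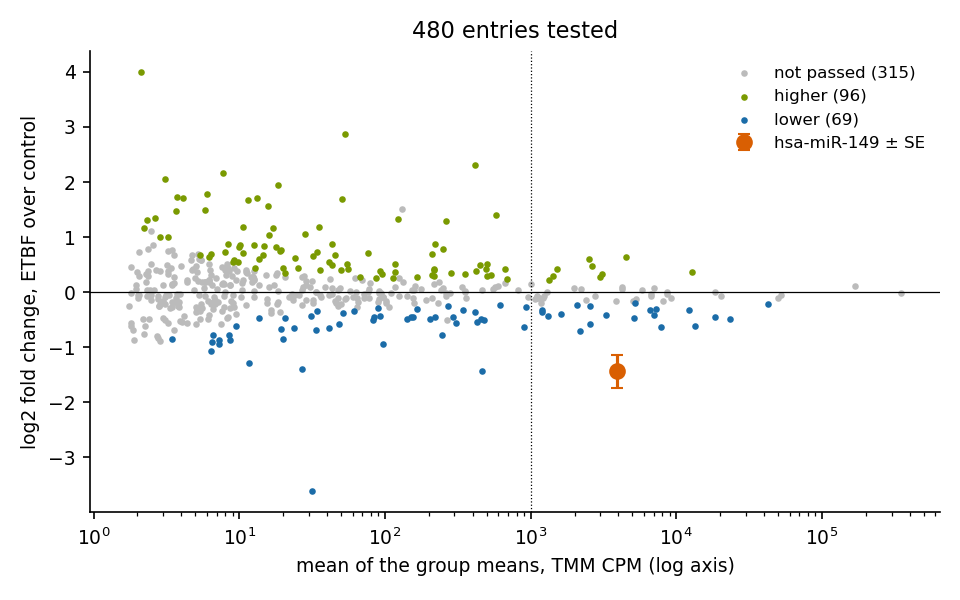
Log2 fold change (ETBF over control, edgeR) against the mean of the 2 group means in TMM-scaled CPM (log axis) for the 480 miRNAs tested, coloured by call. The orange point is hsa-miR-149 with its SE, at -1.44, and the dotted line marks 1000 CPM. Right of that line no other point lies near it: the next largest fall among miRNAs of at least 1000 CPM in controls is -0.70.

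Ratios within a library were used to compare miR-149 with other miRNAs free of any scaling. For each count of miR-149 there were 145, 142, 133 and 347 counts of miR-21-5p, the most abundant miRNA, in ETBF replicates 1 to 4. In controls 1 to 4 there were 67.5, 67.5, 51.5 and 62.3. The mean log2 ratio of miR-149 to miR-21-5p was -7.46 ± 0.66 for ETBF against -5.95 ± 0.18 for controls (SD, n = 4 each), a difference of -1.51 (two-sided exact permutation p = 0.0286, adjusted p = 0.0286). MiR-21-5p, an oncogenic miRNA of colorectal tumours, was itself at -0.02 (SE 0.06, edgeR adjusted p = 0.830).

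Against each of the 10 most abundant miRNAs the ratio was lower in all ETBF libraries than in all controls. The size depended on the reference, from 1.88-fold against miR-30d-5p, which itself fell, to 3.13-fold against miR-7-5p. Over all 479 other tested miRNAs, the ratio of miR-149 to the other was lower without overlap for 419 (87.5%), and higher without overlap for 1, miR-129-5p. The same count of lower ratios was 44 (9.19%) for the median tested miRNA, and 3 miRNAs had more than miR-149. The others, whose ratios overlapped, were all under 1000 CPM with ETBF. Most of them were under 10 CPM with ETBF, where counts are few, and most did not pass. Among those that fell were miR-210-3p and miR-574-3p.

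**Figure D3:**
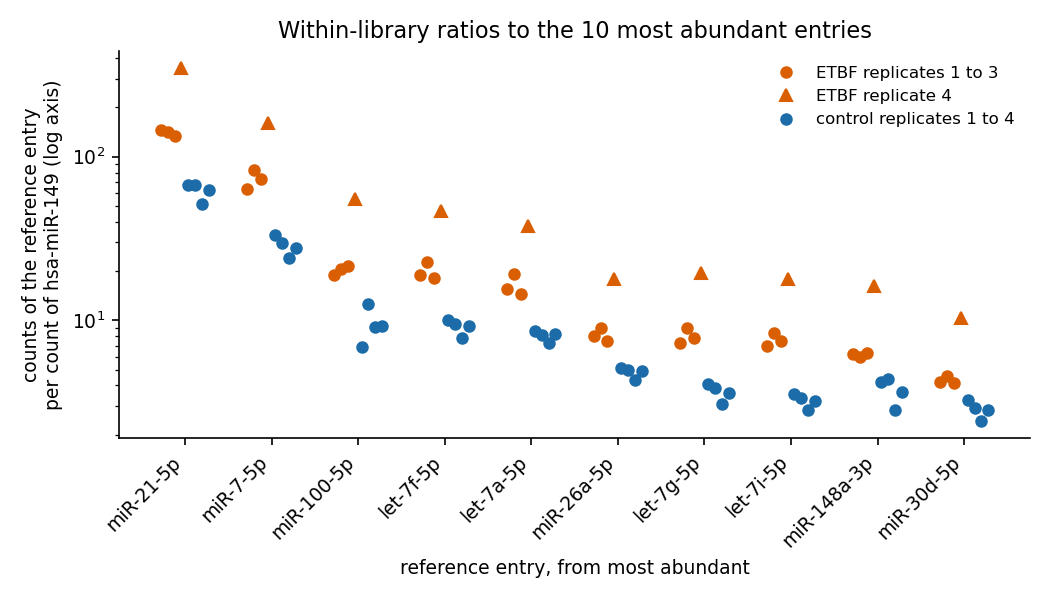
Counts of each of the 10 most abundant miRNAs per count of hsa-miR-149 in the same library (log axis), with ETBF in orange and controls in blue. For every reference all ETBF points lie above all control points, and ETBF replicate 4 (triangle) is the highest, at 347 for miR-21-5p against 133 to 145 in replicates 1 to 3.

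In controls, miR-149 stood above a group of miRNAs that it dropped behind after ETBF. In all 8 libraries 10 miRNAs changed places with it, being below miR-149 in each control and above it in each ETBF library. Of these, 5 were higher by edgeR, 1 was lower and 4 did not pass, beside 20.0% higher and 14.4% lower over all 480. The rule that picked them favours miRNAs that rose and bars those that fell as far as miR-149, so this split is no separate result. MiR-20a-5p (log2 fold change 0.63) and miR-17-5p (0.60), proliferation-linked miRNAs of the miR-17-92 cluster, rose, as did their relative miR-93-5p (0.47). MiR-31-5p (0.34) and miR-148b-3p (0.27) passed too, but their calls did not hold in every alternative (adjusted p up to 0.0714 and 0.111). MiR-423-3p fell, by 0.41 on the log2 scale, less than miR-149 did. The others, miR-30e-5p, miR-30c-5p, miR-183-5p and miR-27b-3p, lay between -0.16 and 0.09 and did not pass.

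The 6 miRNAs nearest to miR-149 in mean log2 CPM over the 8 libraries were all in that group. That follows largely from how they were picked, because this mean lies between the ETBF and control levels of miR-149. Below it were miR-148b-3p, miR-31-5p and miR-423-3p, and above it miR-30c-5p, miR-183-5p and miR-27b-3p. MiR-183-5p, for instance, was at 4301 ± 202 CPM for ETBF against 4116 ± 167 CPM for controls. The level of miR-30c-5p was 3646 ± 74.8 and 4075 ± 64.4 CPM, a log2 fold change of -0.16 (edgeR adjusted p = 0.0521) that passed in 8 of the alternatives.

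Replicate 4 of ETBF departed from its group in miR-149 more than in any other abundant miRNA. Its level was 2.43-fold below the other 3 on average, -1.28 in log2 CPM, the lowest of the 64 abundant miRNAs and the second lowest of all 480. The next lowest of the 64 were miR-31-5p at -0.31 and miR-181a-5p at -0.28, and the median was -0.01. The SD of log2 CPM of miR-149 was 0.65 over the ETBF libraries, where the other 63 lay between 0.02 and 0.22. In controls it was 0.12, near the median of 0.10. Without replicate 4 the SD over ETBF was 0.14.

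The same library had the lowest total (2591655 counts), the fewest miRNAs with any count (882, against 975 to 996 in the other ETBF libraries) and the most miR-6087, a row that resembles ribosomal RNA (459 CPM of the total, against 78.2 to 155 CPM in the other 3 and 23.1 to 122 CPM in controls). Whether these have a part in its low miR-149 was not tested. Other miRNAs above 60% GC gave 1.46% of its counts, against 1.30% to 1.41% in the other ETBF libraries and 1.60% to 1.72% in controls.

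**Figure D4:**
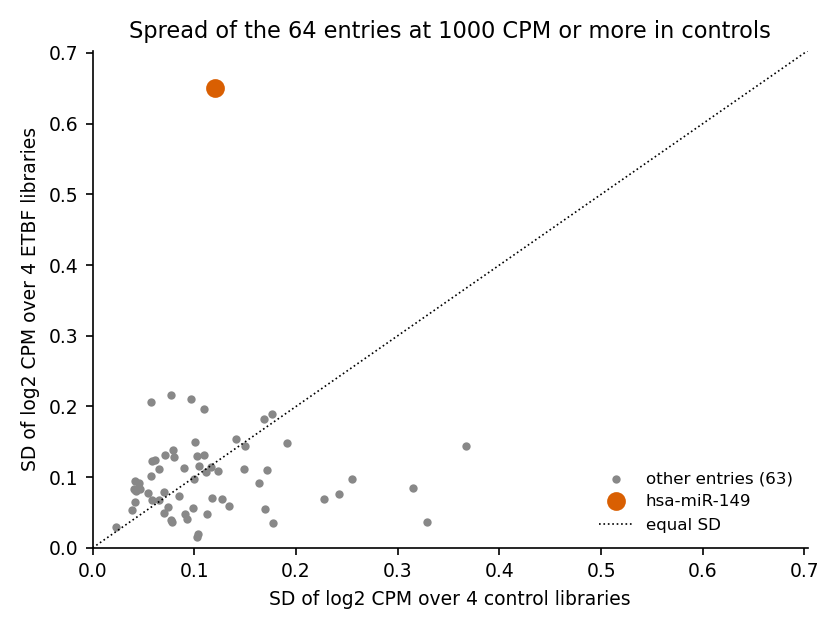
SD of log2 CPM over the 4 ETBF libraries against that over the 4 controls, for the 64 miRNAs with at least 1000 CPM in controls. The dotted line marks equal SD. Hsa-miR-149 stands alone at 0.65 with ETBF and 0.12 in controls, while no other exceeds 0.22 with ETBF.

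The likeness of other miRNAs to miR-149 was measured as Pearson's r of log2 CPM over the 8 libraries, a description that shares the group difference and the library totals. The 5 most alike were miR-625-3p (r = 0.97), miR-129-5p (0.95), miR-328-3p (0.94), miR-26a-5p (0.94) and miR-2110 (0.94), and the median over 479 was -0.13. All 5 had their lowest level in ETBF replicate 4, as miR-149 did. MiR-129-5p was at 5.16, 4.23, 6.68 and 2.25 CPM in replicates 1 to 4, where controls held 54.0 to 64.5 CPM. MiR-625-3p was at 86.0, 79.4, 86.0 and 68.9 CPM with ETBF, where controls held 92.5 to 104 CPM. Its change was far smaller, -0.29 in log2 units, and the call was lost on leaving out ETBF replicate 4 (adjusted p = 0.0840), control replicate 3 (0.0853) or control replicate 4 (0.0525). That call was also lost with total-count scaling (edgeR adjusted p = 0.0780) and after thinning (0.0658). MiR-328-3p was at -0.51, miR-26a-5p at -0.49 and miR-2110 at -0.36 (adjusted p = 0.0551).

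With the group means taken out, the most alike were miR-369-3p (r = 0.97), miR-625-3p (0.93), miR-2110 (0.93), miR-3928-3p (0.91) and miR-129-5p (0.90). All 5 were lowest in ETBF replicate 4 among the ETBF libraries. MiR-369-3p and miR-3928-3p were at under 5 CPM in every library, so their deviations rest on few counts.

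Short motifs described for loading miRNAs into exosomes were searched on the given strand of the mature sequences. GGAG and CCCU are bound by hnRNPA2B1 and GGCU by SYNCRIP, both RNA-binding proteins. Among 2370 RefSeq mature miRNAs 15.7% held GGAG, 11.9% CCCU and 12.6% GGCU. In the tested miRNAs with a matched sequence these shares were 7.55%, 10.4% and 11.6%. The arms of miR-149 are shown with matches in capitals.
hsa-miR-149-5p: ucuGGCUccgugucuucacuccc
hsa-miR-149-3p: agGGAGggacgggGGCUgugc

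The 5p arm held GGCU at bases 4 to 7. The 3p arm held GGAG at bases 3 to 6, inside its seed, and GGCU at bases 14 to 17. Neither arm held CCCU. A match is a description of the letters and not a binding site.

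Of the other tested miRNAs with GGCU, 7 of 48 were higher (14.6%), 17 lower (35.4%) and 24 did not pass. Over all 480 the shares were 20.0% higher and 14.4% lower, a split that depends on scaling, as given above. The median log2 fold change of the GGCU holders was -0.20, where that over all 480 was 0.01. For CCCU 3 of 44 were higher and 12 lower (27.3%), with a median of -0.09. With GGAG 4 of 31 were higher and 4 lower (12.9%), with a median of 0.06, which turned to -0.02 with upper-quartile scaling. Of the 312 with none of the 3 motifs 70 were higher and 35 lower (11.2%), with a median of 0.03 (-0.05 with upper-quartile scaling). The GGCU miRNAs named by abundance, and miR-129-5p, are shown with the motif in capitals because it falls at different places along them.
hsa-miR-26a-5p: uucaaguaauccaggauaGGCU
hsa-miR-103a-3p: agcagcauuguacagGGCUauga
hsa-miR-222-3p: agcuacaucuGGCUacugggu
hsa-miR-24-3p: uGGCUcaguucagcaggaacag
hsa-miR-129-5p: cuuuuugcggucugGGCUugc

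Of these miR-26a-5p fell from 27438 ± 779 to 19513 ± 1124 CPM, miR-222-3p from 9480 ± 549 to 6134 ± 318 CPM and miR-24-3p from 8084 ± 391 to 6504 ± 595 CPM. MiR-103a-3p rose from 11186 ± 904 to 14504 ± 480 CPM. A part of the motif in these changes was not tested. Examples with CCCU were miR-125b-5p (log2 fold change -0.32), miR-423-3p (-0.41) and miR-375 (-0.56), which fell (miR-375 has no arm in its row, and both arms were searched, so the counted reads may lack the motif), and miR-125a-5p at -0.40, whose call was lost without any 1 of 6 libraries (adjusted p up to 0.106). Among GGAG holders miR-125b-1-3p (1.28), miR-339-5p (0.34) and miR-378c (0.37) rose, and miR-629-5p was at -0.25, a call that leaving out control replicate 1 or 3 removed (adjusted p = 0.0877 and 0.0643). Total-count scaling also removed the calls of miR-629-5p and miR-125a-5p (edgeR adjusted p = 0.0828 and 0.0568).

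Of 14 miRNAs described as exported in exosomes, 9 were tested inside the cells: 1 was higher, 0 were lower and 8 did not pass, beside 20.0% higher and 14.4% lower over all 480. Their median log2 fold change was -0.02, with 0.03 under total-count and -0.11 under upper-quartile scaling. MiR-92a-3p was at -0.00 (SE 0.08), miR-23a-3p at -0.00 (SE 0.07), miR-320a at -0.10 (SE 0.07) and miR-10b-5p at -0.06 (SE 0.08). The one that passed was miR-451a, an erythroid miRNA, from 7.24 ± 1.97 to 29.4 ± 19.8 CPM (1.94, SE 0.52, adjusted p = 0.0273), which was highest, at 58.0 CPM, in ETBF replicate 4. Its call was lost without ETBF replicate 1 or any of control replicates 1 to 3 (adjusted p from 0.0613 to 0.0722). It was also lost without a filter on low counts (edgeR adjusted p = 0.0868). Only cellular RNA was measured here, and vesicle levels of miR-149 were not analysed.

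MiRNAs whose genes are silenced by methylation in colorectal cancer, the class to which miR-149 belongs, were counted next. Of 17 others named, 10 were tested: 4 were lower, 1 was higher and 5 did not pass, beside 14.4% lower and 20.0% higher over all 480. With so few members the counts are given as a description (median log2 fold change -0.27). MiR-129-5p (-3.62), miR-941 (-0.70) and miR-148a-3p (-0.45) fell, and miR-342-3p was at -0.35, a call lost after thinning (adjusted p = 0.0556). The p53 target miR-34a-5p rose from 188 ± 13.4 to 248 ± 20.9 CPM. MiR-9-5p, also methylated in tumours, was abundant and at -0.03 (SE 0.08, adjusted p = 0.832). None of the 4 falls but that of miR-129-5p was as large as that of miR-149.

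Of the other 74 tested rows without an arm in their names, 18 were higher (24.3%), 6 lower (8.11%) and 50 did not pass, beside 20.0% higher and 14.4% lower over all 480. Their median log2 fold change was 0.17. Among the abundant ones miR-941 fell, miR-203a (0.42) and miR-107 (0.39) rose, and miR-429 was at -0.23, a call lost with total-count scaling and without ETBF replicate 3 (adjusted p = 0.0769 and 0.0532). Over both arms joined miR-149 has 68.2% GC, and a window of 5 percentage points around that was compared. The counted arm is not known, and each arm alone, at 60.9% (5p) or 76.2% (3p), lies outside this window. Of the 54 others in it 13 were lower (24.1%), 4 higher (7.41%) and 37 did not pass (median -0.17). Over all 480 the shares were the same 14.4% lower and 20.0% higher. That split depends on scaling, as given above. In that set miR-423-3p fell, and miR-744-5p (-0.27) and miR-99b-5p (-0.24) passed without holding in every alternative (adjusted p up to 0.117 and 0.199). None of the 54 had a larger fall than miR-149, although miR-210-3p, at -1.43, and miR-935, at -1.40, lay within the SE of miR-149. Without ETBF replicate 4 both fell further than miR-149 (-1.51 and -1.42 against -1.21). With the trend over GC removed, and 68.2% taken as its GC, miR-149 was at -1.27 (edgeR adjusted p = 0.0165).

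Epithelial miRNAs were present in all libraries. Marker levels in this paragraph are CPM of the library total unless TMM is named. Of 11 gut epithelial markers 10 were at 10 CPM or more, and their summed level was 29811 to 31608 CPM with ETBF and 30536 to 33873 CPM in controls. The intestinal marker miR-215-5p was near 0, at 1.99 CPM on average. Blood markers summed to 74.0 to 108 CPM with ETBF and 58.5 to 69.9 CPM in controls, and stromal and muscle markers to 239 to 301 and 244 to 270 CPM, with miR-206 at 0. Of the neuronal markers miR-124-3p was at 0 in all libraries, and miR-9-5p made up most of their sum of 8240 to 10251 CPM. The TMM-scaled mean of miR-9-5p was 8492 CPM with ETBF and 8652 CPM in controls. A part of these markers in the level of miR-149 was not tested.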

How the data were processed

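The authors deposited raw read counts per miRNA name, 1 file per library, and the labels give the groups by title. Trimmomatic, FastQC, featureCounts and GRCh37.p5 are named in the submitters' processing notes. For the versions of these tools, the aligner, the miRNA release and strandedness, the entry is: not given in the sources used here. The row hsa-miR-149 and the lists were chosen with earlier results of these data known.

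Counts were fitted in R 4.3.3 with edgeR 4.0.16 (robust quasi-likelihood F test, TMM, default filter at a minimum count of 10), with Benjamini-Hochberg adjustment over the 480 miRNAs that passed, at 0.05. These held over 99.9% of each library. SE is the log2 fold change over the square root of F. Log2 CPM used a prior count of 2. Pairwise ratios to all tested miRNAs added 0.5 to each count. CPM, rank and ratio were compared by exact permutation. The fit was tested on simulated data. Alternatives were other scalings, filters, DESeq2 1.42.0, limma-voom (limma 3.58.1), a replicate block, GC-trend removal, thinning, single libraries left out and, chosen after seeing the data, the fit without the robust option. RefSeq sequences (GRCh38.p14) matched 424 of 480 tested names (88.3%). The files hold no coordinates. The GC trend was removed per library by loess, as offsets.

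Named miRNAs are hsa-miR-149, its 3 neighbours in level on each side, the 5 most alike by each measure, those sharing a seed, up to 4 called members per list by abundance, and abundant miRNAs with a fall as large. Others, among them those that changed places with miR-149 and the largest falls and losses, were chosen after their values were seen. All list counts leave hsa-miR-149 out, but the 480 tested miRNAs and the 64 abundant ones, with their 23 falls, include it.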

Additional observations from a re-analysis of the deposited data

Results flagged for a closer look

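Within groups of 4, 6 of 88 checks found a library whose gap to its nearest neighbour took up more of the group's range than Dixon's 95% limit, and chance gives about 1 in 20. Of these, 3 were for miR-149 itself: ETBF replicate 4 in rank (59) and in the log2 ratio to miR-21-5p (-8.44), and control replicate 3 in TMM-scaled level (6438 CPM, against 5378 to 5498 CPM in the other controls). In CPM of the library total ETBF replicate 4 came just under the limit, with a gap of 0.828 of the range. The other 3 were miR-103a-3p in control replicate 2 (12539 CPM), miR-148a-3p in ETBF replicate 2 (13254 CPM) and miR-34a-5p in ETBF replicate 4 (217 CPM).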

How the results depend on the processing

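The fall of miR-149 kept its direction and stayed under the threshold in all 20 alternatives, with log2 fold changes from -1.57 to -1.21 and adjusted p from 4.95e-10 to 0.0357, the highest without a filter on low counts. In that unfiltered fit miR-149 was 130th of 1496 by size of fall, behind miRNAs under 1000 CPM in controls, and elsewhere 2nd to 6th. Without edgeR's robust option the adjusted p was 4.43e-05 at the same fold change (-1.44). The number of miRNAs called stayed between 141 and 167 (165 as reported), and upper-quartile scaling moved the split to 74 higher and 92 lower (44.6% higher, against 58.2%), as did removal of the GC trend with 70 and 87. Same-numbered libraries did not deviate together (r from -0.06 to 0.06), so the numbers are not taken to pair them. With a replicate block the log2 fold change was -1.52 (adjusted p = 0.00785) and 159 miRNAs were called. With the GC trend removed as well it was -1.36 (adjusted p = 0.0216) and 145 were called. Within replicate numbers the CPM difference was -3463, with an exact sign-flip p of 0.125, the smallest 4 pairs allow. With single libraries left out the CPM difference lay between -3616 and -3098. With upper-quartile scaling the list medians moved to -0.048 (no motif), -0.35 (methylation-silenced) and -0.11 (exosome-exported). A count of 0 allows 0.460 to 1.16 CPM, which limits what can be said of rare miRNAs. All ETBF totals lay below all control totals. Apart from the thinned fit, a part of depth in the fall of miR-149 was not tested.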

Other observations

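The miRNA hairpins looked up next to that of miR-149 on chromosome 2 all lay before it, the nearest 513 kb away, and gave few counts. The other side was not covered. MiR-4786-5p had 19 and miR-4786-3p 2 over the 8 libraries, miR-2467-5p had 78 and miR-2467-3p 1, and miR-4269 had 0. The miRNA least like miR-149 over the 8 libraries was let-7a-2-3p, a minor arm of the let-7 family (r = -0.96), which rose by 1.04 on the log2 scale (SE 0.15, edgeR adjusted p = 1.10e-05). It was at 20.2, 22.1, 17.7 and 26.9 CPM in ETBF replicates 1 to 4 and at 9.35 to 12.2 CPM in controls, so ETBF replicate 4 was its highest library where it was the lowest for miR-149.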
